A study of Mus musculus with 8 samples.

Results

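Cytosolic ribosomal protein genes near ERRα peaks were examined in skeletal muscle and liver of WT and ERRα3SA mice. A gene was a member if its annotated name was Rpl or Rps followed by a digit, or Rpsa, Rplp0, Rplp1 or Rplp2, and if a peak lay within 20 kb of its transcription start site (TSS) in any of the 4 peak lists. Rps6k kinases and names marked as pseudogenes were left out. The rule found 61 genes of the 16988 genes with a peak within 20 kb in any list, and 180 peaks belonged to them, of which 30 were in WT muscle, 54 in ERRα3SA muscle, 36 in WT liver and 60 in ERRα3SA liver.

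The chromatin came from male mice on a C57BL/6N background, 2 to 3 months old and killed at zeitgeber time 9. WT mice were compared with ERRα3SA mice, in which 3 phosphosites in the amino-terminal domain of ERRα are mutated in the whole animal, and no further allele or agent separated the groups. Muscle was gastrocnemius and soleus pooled from 5 mice per genotype, and liver was pooled from 2 mice per genotype. Each genotype and tissue gave 1 ERRα ChIP library and 1 input library, so that every value below describes 1 library, no p-value is given, and a difference between genotypes or tissues has no replicate check.

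Ribosomal proteins form the large and small subunits of the cytosolic ribosome together with ribosomal RNA. Their genes are transcribed in nearly every cell, mostly from GC-rich promoters without a TATA box, and their mRNAs start with a run of pyrimidines that couples translation to mTORC1 signalling. ERRα is an orphan nuclear receptor known for its control of mitochondrial and energy metabolism genes, and it binds as monomer or dimer to an extended half-site, the ERR response element (ERRE), written TCAAGGTCA.

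The deposited lists held 25427 peaks in WT muscle, 50647 in ERRα3SA muscle, 21813 in WT liver and 29040 in ERRα3SA liver. Each peak has a score of at least 30 from the peak caller, and peaks were ranked by score within their own list, where the top percentage is the rank divided by the length of the list and small values mean high scores. Many scores are tied, and 33.6% of WT and 35.2% of ERRα3SA muscle peaks held the lowest score, which gives them 1 common rank. The lists hold no read numbers, so the depth of the libraries is unknown. The tissue labels were checked with 18 muscle and 18 liver marker genes. A peak in the top 10% was present at 10 muscle markers in WT muscle and 10 in ERRα3SA muscle, and at 1 in each liver list, whereas liver markers had such a peak at 1 and 0 genes in muscle and at 3 and 2 genes in liver.

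The sequences that matter most for the peaks described below are shown first, read from RefSeq's GRCm38.p6 assembly, 5′ to 3′. The set of short sequences holds ERREs in the central 300 bp of member peaks, with the ERRE in capitals, 12 bases on either side and the coordinates of the ERRE itself. They were chosen to show sites at the best-ranked, the muscle and the shared peaks, and at Rpl27 a site in a repeat. The sites at Rps3 and Rps26 also lie in bases that RefSeq marks as repeats.
Rpl7l1, chr17:46779337-46779345, minus strand: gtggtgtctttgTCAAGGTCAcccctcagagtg
Rps28, chr17:33823524-33823532, minus strand: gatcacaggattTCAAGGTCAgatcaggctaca
Rps4l, chr6:148355170-148355178, plus strand: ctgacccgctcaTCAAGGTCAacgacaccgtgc
Rps3, chr7:99492384-99492392, plus strand: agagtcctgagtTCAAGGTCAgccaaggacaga
Rpl21, chr5:146834912-146834920, minus strand: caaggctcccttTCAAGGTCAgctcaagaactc
Rps26, chr10:128621210-128621218, minus strand: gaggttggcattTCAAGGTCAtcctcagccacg
Rpl27, chr11:101437056-101437064, minus strand: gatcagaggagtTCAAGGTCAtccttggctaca

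The promoter of Rpl3l is shown because the highest-ranked member peaks of both muscle lists covered it. The sequence runs from 250 bases before to 50 bases after the downstream RefSeq start of this gene, with the half-site AAGGTCA in capitals.
Rpl3l promoter, chr17:24732435-24732734, plus strand: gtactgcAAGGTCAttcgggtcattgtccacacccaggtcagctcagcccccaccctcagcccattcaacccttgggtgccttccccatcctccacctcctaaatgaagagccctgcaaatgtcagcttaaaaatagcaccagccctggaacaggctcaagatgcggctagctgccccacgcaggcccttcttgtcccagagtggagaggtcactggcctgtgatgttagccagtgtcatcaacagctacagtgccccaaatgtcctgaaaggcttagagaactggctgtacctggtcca

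Rpl3l had the strongest peak of the family in muscle. Rpl3l encodes a paralog of the core protein Rpl3 that is expressed mainly in striated muscle. In WT muscle the interval chr17:24731670-24733206 had a score of 504 and rank 151, the top 0.594% of the list, with its centre 247 bp upstream of the TSS. In ERRα3SA muscle the interval chr17:24731668-24733696 had a score of 949 and rank 115, the top 0.227%, with its centre 3 bp upstream. In liver the promoter was also called, but at rank 9851 (top 45.2%) in WT and at rank 9685 (top 33.4%) in ERRα3SA. The gene was thus near the head of both muscle lists and in the middle of both liver lists. Only ERRα3SA muscle held a second Rpl3l peak, at the upstream RefSeq start (chr17:24727649-24728785), with rank 2166 and the top 4.28%.

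None of the Rpl3l intervals contained TCAAGGTCA. The half-site AAGGTCA at chr17:24732442-24732448, capitalised in the promoter above, lay 7 bp from the centre of the WT muscle interval, 237 bp from that of the ERRα3SA muscle interval, 209 bp from that of the WT liver interval and 68 bp from that of the ERRα3SA liver interval. It was inside all 4 promoter intervals, and the wider muscle intervals held further copies.

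Rpl32l had the highest-ranked member peak in WT liver. It is an intronless copy of Rpl32, a core protein of the large subunit. The peak over its exon had rank 909 (top 4.17%, score 298) in WT liver and rank 1380 (top 4.75%, score 324) in ERRα3SA liver. In ERRα3SA muscle it had rank 7851 (top 15.5%, score 49), and WT muscle had none. All 3 centres lay in the exon, between 241 and 268 bp downstream of the start. Rps4l, a transcribed pseudogene related to Rps4x, was bound in liver only, at rank 4523 (top 20.7%) in WT and rank 4219 (top 14.5%) in ERRα3SA. Its ERRE, shown above, lay within the non-coding exon. It was 99 bp from the centre of the ERRα3SA interval and 170 bp from that of the WT interval, just outside the central window. Copies of this kind share sequence with their parent genes, so the values of Rpl32l and Rps4l are uncertain.

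Among the stalk proteins, Rplp0, the base of the stalk that recruits elongation factors, had peaks in all 4 lists. In 3 of them its highest peak lay upstream in an intron of the neighbouring gene Pxn. The centre was 16190 bp upstream in ERRα3SA muscle (rank 2394, top 4.73%), 15943 bp upstream in WT liver (rank 3798, top 17.4%) and 15682 bp upstream in ERRα3SA liver (rank 1531, top 5.27%). These 3 intervals all held the half-site AAGGTCA at chr5:115543313-115543319. The WT muscle peak 15508 bp upstream overlapped both liver intervals but began downstream of the half-site, and it had rank 16894 (top 66.4%), and the best Rplp0 peak there was 5315 bp upstream (rank 10219, top 40.2%). Both ERRα3SA lists therefore held an upstream Rplp0 peak among their top 10%, and neither WT list did. Rplp1, another stalk protein, had a promoter peak in WT muscle (top 37.8%), WT liver (top 28.1%) and ERRα3SA liver (top 38.6%), and its best peak in WT muscle lay 15189 bp downstream (top 24.6%). Rplp2 had none by annotated name.

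**Figure D1:**
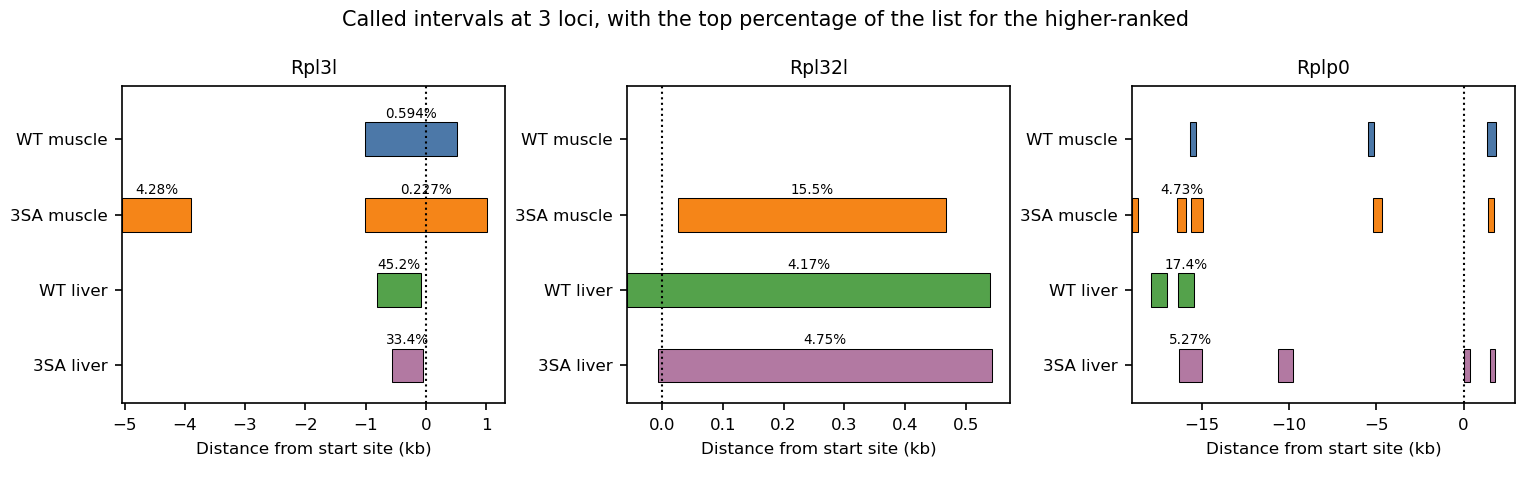
Called intervals at Rpl3l, Rpl32l and Rplp0, by distance from the TSS in kb along the direction of transcription, with 1 row per list and the top percentage of the list printed over the higher-ranked intervals. The highest-ranked muscle intervals at Rpl3l span the TSS, the second ERRα3SA muscle interval lies upstream, the liver intervals end just upstream of the TSS, Rpl32l has none in WT muscle, and the highest-ranked Rplp0 interval of each list lies upstream, nearer to the TSS in WT muscle than in the other lists.

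Of the core proteins of the large subunit, Rpl7a was the only one with a peak within 1 kb of its TSS in both muscle genotypes, at rank 1781 (top 7.0%) in WT and rank 7851 (top 15.5%) in ERRα3SA. In WT muscle the next-ranked members were Rpl21 (rank 2872, top 11.3%, 294 bp downstream), Rpl28 (rank 3863, top 15.2%, 387 bp downstream) and Rpl12 (rank 4057, top 16%, 769 bp downstream). None of these 3 had a peak by name in ERRα3SA muscle. Rpl10a had peaks in all lists, none with a centre within 300 bp of another list's. However, the best WT and ERRα3SA muscle intervals overlapped, and each also overlapped an ERRα3SA liver interval. The best Rpl10a peak was at the top 5.17% in ERRα3SA muscle (2868 bp upstream, inside Fance), at the top 66.4% in WT muscle, at the top 75.0% in WT liver and at the top 38.6% in ERRα3SA liver.

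Rpl11, which binds Mdm2 when ribosome assembly fails, had its best peak 18036 bp upstream in WT muscle (top 24.6%), 18434 bp upstream in WT liver (top 24.9%) and 18305 bp upstream in ERRα3SA liver (top 16.3%). The ERRα3SA muscle peak lay elsewhere, 3573 bp downstream (top 38.7%). Rpl29 was also in all 4 lists, with its best peaks between the top 32.6% in WT liver and the top 80.6% in ERRα3SA liver, at 4 different positions. Rpl13a, a protein that can leave the ribosome to silence translation, was bound in liver inside Flt3l, at the top 28.4% in WT and the top 11.8% in ERRα3SA. Presence in all 4 lists therefore did not mean the same site, and of these genes only Rpl3l had a promoter-TSS peak in each.

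Of the small subunit, Rps12 had an intronic peak 284 bp downstream of its TSS in ERRα3SA muscle alone (rank 3595, top 7.1%). Rpsa was at the top 16% in WT muscle. Rps3, whose protein sits at the entry channel of the mRNA, had a shared liver peak, 8768 bp upstream at the top 16% in WT and 8624 bp upstream at the top 22.8% in ERRα3SA, with the ERRE shown above. Rps14 was in all 4 lists, with its best peaks between the top 24.6% in WT muscle and the top 75.0% in WT liver. Rps7 was the highest-ranked member bound in WT liver and absent from ERRα3SA liver (top 32.6%), followed by Rpl6, Rps15, Rps15a and Rps29, which shared the top 45.2%.

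Some of these genes carry snoRNA genes in their introns, and peaks named for a snoRNA are not counted for the host by the rule. A check chosen after the values were seen found 15 peaks that lay inside a protein-coding ribosomal protein gene but were annotated to a snoRNA of that gene, and most had low ranks. Not all of them are given here, and examples were a WT muscle peak in Rps3 annotated to Snord15a at rank 1805 (top 7.1%) and a WT liver peak in Rpl17 annotated to Snord58b at rank 2388 (top 10.9%). Counting such peaks for the host gene gave 23 bound genes in WT muscle, 35 in ERRα3SA muscle, 33 in WT liver and 40 in ERRα3SA liver. Peaks of snoRNAs in other host genes were not reassigned, so these counts have no share over all genes beside them.

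**Figure D2:**
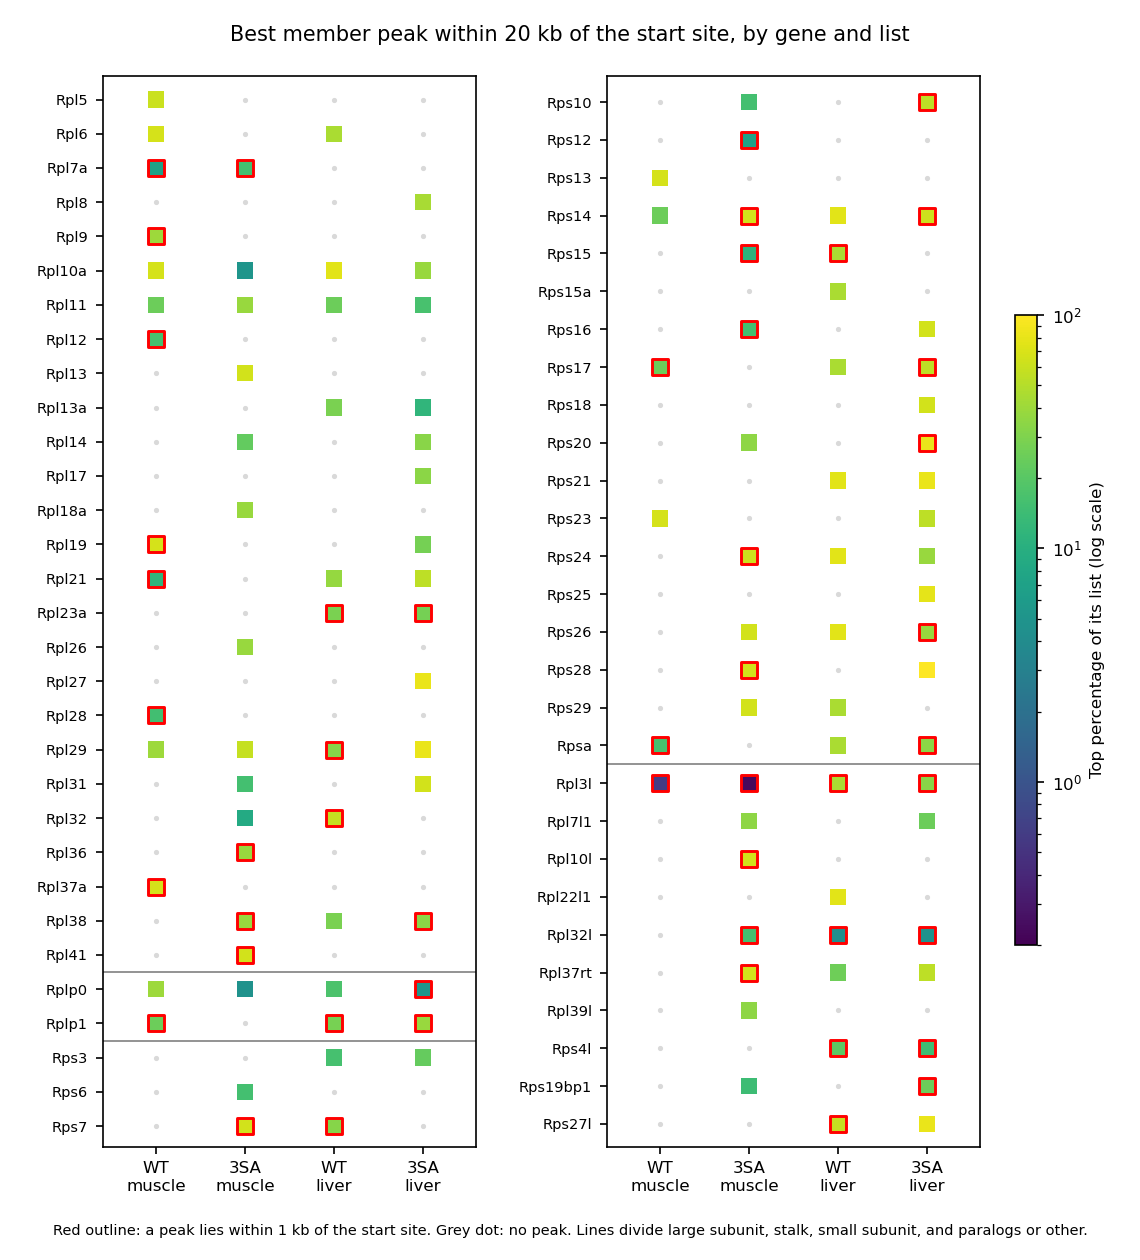
Best peak of 59 of the 61 genes in each list, coloured by the top percentage of the list on a log scale, with dark squares for high ranks, grey dots for no peak by annotated name, and red outlines for a peak within 1 kb of the TSS. Rpl3l in muscle has the darkest squares, and most others are in the middle or lower part of their list.

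The remaining paralogs had no peak in the top 10%. Rpl7l1, which acts in ribosome assembly, was bound in an intron in both ERRα3SA lists, at the top 34.9% in muscle and the top 24.9% in liver, at the same ERRE. Rps19bp1 meets the name rule but encodes a binding protein of Rps19 that also regulates Sirt1, and it was bound in both ERRα3SA lists, at the top 14.3% in muscle and the top 24.9% in liver. These 2 were the highest-ranked members bound in ERRα3SA liver and absent from WT liver. The testis-expressed Rpl10l and Rpl39l had a peak in ERRα3SA muscle alone, at the top 64.8% and 34.9%. Rpl22l1 was bound in WT liver alone (top 75.0%), Rps27l in both liver lists (top 57.4% and 80.6%), and Rpl36al in none.

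By the number bound, the members lay below the background in muscle and near it in liver. A peak within 20 kb was present at 21 of 61 members in WT muscle (34.4%, 95% Wilson interval 23.7 to 47.0), beside 51.0% of all 16988 genes. In ERRα3SA muscle it was present at 34 members (55.7%, 43.3 to 67.5) beside 71.7%. In liver the members were nearer to the background, with 30 members in WT (49.2%, 37.1 to 61.4) beside 44.2% and 38 members in ERRα3SA (62.3%, 49.7 to 73.4) beside 55.6%. In both muscle lists the background lay above the members' interval, and in both liver lists inside it. The intervals cover counting error only, and neighbouring members can share a peak region.

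These shares use genes with at least 1 peak in some list, as the rule does. RefSeq lists 89 protein-coding genes whose names meet the rule, of which 60 had a peak within 20 kb in some list and 29 had none. The 61st member is the pseudogene Rps4l. Of the 29, 17 belong to the large subunit, among them Rpl3, Rpl4 and Rpl7, 8 to the small subunit and 1 to the stalk, and 3 are paralogs. Over all 21900 protein-coding genes 33.6%, 46.6%, 29.1% and 36.6% had a peak in WT muscle, ERRα3SA muscle, WT liver and ERRα3SA liver, beside 23.6%, 38.2%, 32.6% and 41.6% of the 89. The family was again lower in muscle and slightly higher in liver, but the value of all genes was inside the family's interval in ERRα3SA muscle (28.8 to 48.6), WT liver (23.7 to 42.9) and ERRα3SA liver (31.9 to 52.0), and just above it in WT muscle (16 to 33.4). Any peak centre within 20 kb of the RefSeq TSS, whatever gene it was annotated to, was found for 53, 66, 58 and 62 of the 89 genes. The share of all protein-coding genes under this rule was not computed, so these counts do not place the family.

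High-ranked peaks were few. A peak in the top 10% of its list was present at 2 members in WT muscle (Rpl3l and Rpl7a), at 6 in ERRα3SA muscle (among them Rpl3l, Rplp0, Rpl10a, Rps12 and Rpl32), at 2 in WT liver (among them Rpl32l) and at 3 in ERRα3SA liver (among them Rpl32l and Rplp0). The members' shares were 3.28%, 9.84%, 3.28% and 4.92%, beside 8.48%, 14.4%, 7.46% and 9.87% of all genes, which were inside the members' intervals in all 4 lists. A score of at least 100 was held by 1, 4, 3 and 6 member peaks. These were 3.33% of the member peaks in WT muscle, 7.41% in ERRα3SA muscle, 8.33% in WT liver and 10% in ERRα3SA liver, beside 6.13%, 6.76%, 20.2% and 22.5% of all peaks within 20 kb.

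**Figure D3:**
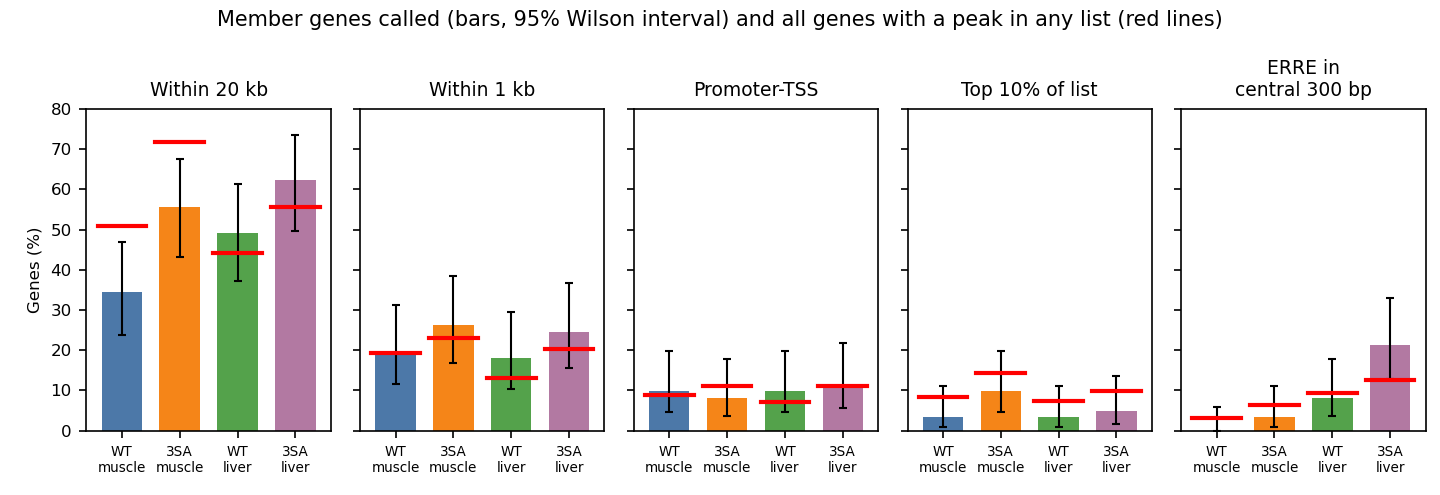
Share of the 61 members (bars, with 95% Wilson intervals) and of all 16988 genes (red lines) called in each list under 5 rules, in percent. Within 20 kb the red line is above the interval in both muscle lists, and for the other rules it crosses the interval in every list but ERRα3SA liver for the ERRE.

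Positions relative to the TSS were compared by peak and by gene. Of the member peaks within 20 kb, 43.3% in WT muscle, 31.5% in ERRα3SA muscle, 36.1% in WT liver and 25% in ERRα3SA liver were within 1 kb of the TSS, beside 26.2%, 17.4%, 20.6% and 22.6% of all peaks. Counted by gene, 12, 16, 11 and 15 members had a peak within 1 kb, which were 19.7%, 26.2%, 18% and 24.6% beside 19.3%, 23.1%, 13.1% and 20.3% of all genes. By genes the background lay inside the members' interval in all 4 lists. The centre was downstream of the TSS for 10 of 13, 15 of 17, 8 of 13 and 9 of 15 of the near peaks, which were 76.9%, 88.2%, 61.5% and 60.0% beside 70.1%, 67.5%, 59.9% and 60.1% of all near peaks.

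The members with a near peak differed between lists. Rpl3l had one in all 4, Rpl32l and Rplp1 in 3, and most others in 1 or 2. WT muscle alone had one at Rpl9, Rpl12, Rpl19, Rpl21, Rpl28 and Rpl37a, among others, and ERRα3SA muscle alone at Rpl10l, Rpl36, Rpl37rt, Rpl41, Rps12, Rps16, Rps24 and Rps28. Rpl23a, a protein at the exit of the peptide tunnel, had one in both liver genotypes and in neither muscle list.

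The authors' annotation called a promoter-TSS peak at 6 members in WT muscle beside 8.97% of all genes, at 5 in ERRα3SA muscle beside 11.1%, at 6 in WT liver beside 7.2%, and at 7 in ERRα3SA liver beside 11.1%. As shares these were 9.84%, 8.2%, 9.84% and 11.5%. Only Rpl3l had one in all 4 lists. The annotated promoter can be that of another gene near the member's TSS. In WT muscle it was that of Med22 at Rpl7a, Lias at Rpl9 and Snora65 at Rpl12, and in ERRα3SA muscle that of Med22 at Rpl7a and AF357399 at Rps16. Of the member peaks, 7 in WT muscle, 24 in ERRα3SA muscle, 10 in WT liver and 18 in ERRα3SA liver were annotated to the body, promoter or end of another gene, snoRNAs within members included. The same share over all peaks was not computed.

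**Figure D4:**
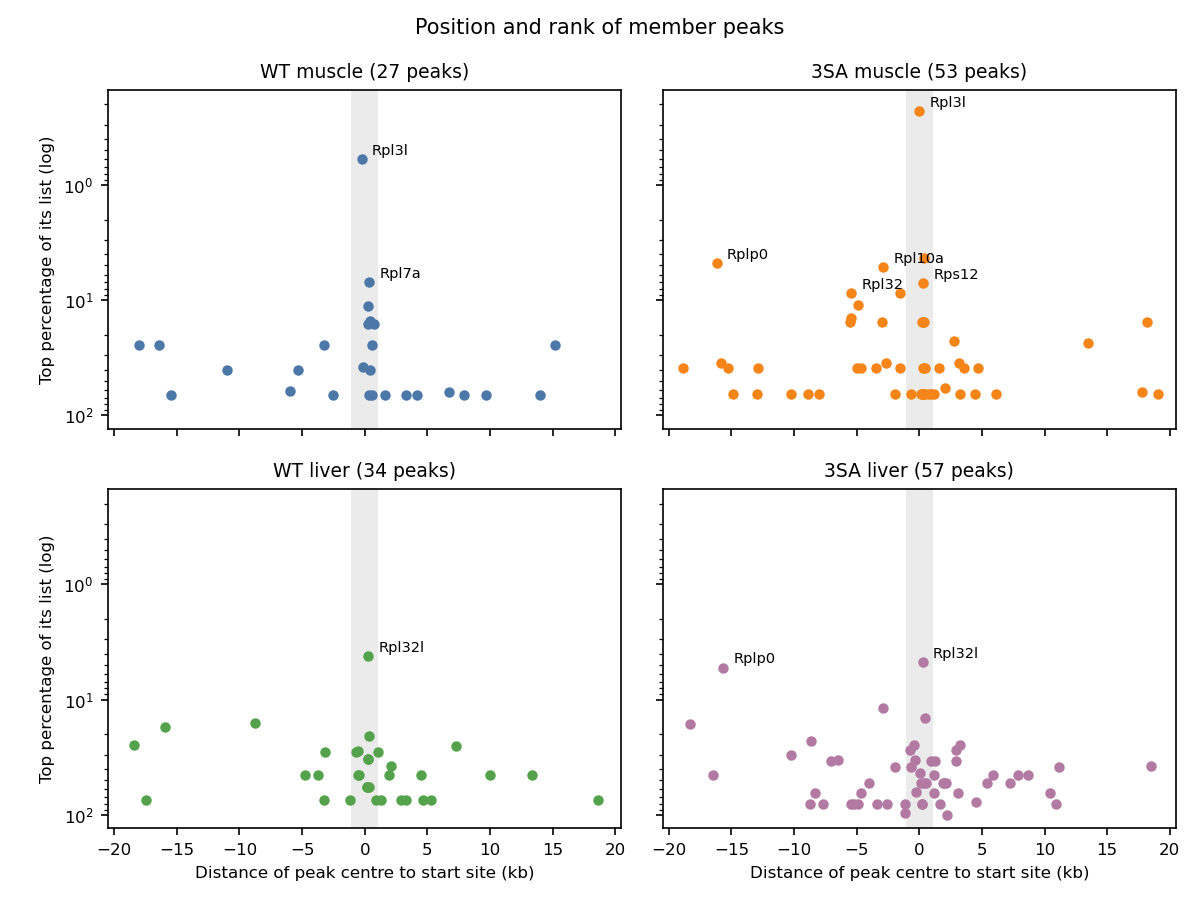
Peaks of the same 59 members by the distance of its centre from the TSS in kb and by its top percentage of the list on an inverted log scale, 1 panel per list, with the 1 kb on either side of the TSS in grey and the genes in the top 10% named. The highest plotted peaks are within 1 kb of the TSS in each panel, apart from the upstream Rplp0 peaks and the Rpl10a and Rpl32 peaks of ERRα3SA muscle.

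By annotated name, WT and ERRα3SA muscle had few bound members in common. Of 48 members bound in muscle, 7 were bound in both genotypes (14.6%), 27 in ERRα3SA alone (56.2%) and 14 in WT alone (29.2%), beside 44.3%, 40.1% and 15.7% of all genes bound in muscle. In liver, 23 of 45 members were bound in both genotypes (51.1%), 15 in ERRα3SA alone (33.3%) and 7 in WT alone (15.6%), beside 49.7%, 33.6% and 16.7%. By annotated name, liver thus followed the background and muscle did not, although this difference was not tested. The 7 were Rpl3l, Rpl7a, Rplp0, Rpl10a, Rpl11, Rpl29 and Rps14. The split in muscle depends on how peaks are named. With snoRNA peaks counted for their host, 9 were bound in both genotypes, 26 in ERRα3SA alone and 14 in WT alone. Any peak within 20 kb of the RefSeq TSS was found for 53 of the 89 genes in WT muscle and 66 in ERRα3SA muscle. By that rule more than 7 genes had a peak in both. The split over all genes was not computed for either rule.

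The ERRα3SA muscle list is longer than the WT list. Cut to the 25427 highest peaks it held 21 members, as many as the WT list, beside 47.6% of all genes. Bound in both muscle genotypes were then 4 members, with 17 in ERRα3SA alone and 17 in WT alone. The same split over all genes at equal length was not computed. The cut fell among peaks of equal score, which were kept or dropped by their order in the list, so these counts depend partly on that order. The ERRα3SA liver list cut to the length of the WT list held 30 members, again as many as the WT list, beside 46.2% of all genes. At equal list length the number of bound members was thus the same in both genotypes of each tissue.

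By position, peaks with centres within 300 bp of each other in both genotypes were found for 3 members in muscle (Rpl3l, Rpl7a and Rplp0; 4.92%), beside 15.1% of all genes. In liver 17 members had such a peak (27.9%), beside 25.1%. Between tissues, 3 members shared a peak in WT (Rpl3l, Rpl6 and Rps14; 4.92%), beside 10.1%, and 4 in ERRα3SA (among them Rpl7l1, Rpl32l and Rplp0; 6.56%), beside 17.9%. For Rplp0 this was a peak downstream of the TSS and not the upstream one. Rpl3l was found at its promoter in both tissues of WT mice, while the wide ERRα3SA muscle interval at Rpl3l had its centre too far from that of the liver interval to be counted.

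The ERRE was found at more members in liver than in muscle, and the same held over all genes. TCAAGGTCA on either strand was present in the central 300 bp for 0 members in WT muscle (interval up to 5.92%), beside 3.26% of all genes, and for 2 members in ERRα3SA muscle (Rpl7l1 and Rps28), beside 6.3%. In WT liver 5 members had it (among them Rpl21, Rps3, Rps15a and Rps26; 8.2%), beside 9.25%. In ERRα3SA liver 13 members had it (21.3%, 12.9 to 33.1), beside 12.7%, and this was the only list in which the background lay below the members' interval. Over protein-coding genes 12 of the 89 had it there (13.5%, 7.88 to 22.1) beside 8.52% of all, which is inside the interval. These 13 included Rpl7l1, Rpl10a, Rpl14, Rpl21, Rpl27, Rpl31, Rpl38, Rps3, Rps4l, Rps16, Rps26 and Rpsa. The half-site AAGGTCA, searched after the values were seen, was in 6.67%, 11.1%, 33.3% and 40.0% of the member peaks, beside 13.8%, 15.2%, 35.8% and 35.5% of all peaks within 20 kb.

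Most of the liver ERREs lay in repeat sequence. The ERRE was in bases that RefSeq marks as repeats in 4 of 5 member peaks in WT liver and in 9 of 14 in ERRα3SA liver, which were 80% and 64.3% beside 51.7% and 52.1% of all peaks with an ERRE. The ERRα3SA liver interval at Rpl27 and the WT liver interval at Rps26 were annotated to the SINE ID_B1, and both liver intervals at Rps3 to the LTR element RLTR25B. This look at repeats was chosen after the values were seen. The ERREs of Rpl7l1, Rpl21 and Rps4l were not in marked repeats. The member peaks with an ERRE in the central 300 bp had top percentages between 14.5% at Rps4l and 80.6% at Rpl10a and Rpl27, so that none of these was in the top 10%. Outside the central window, the ERRα3SA muscle interval at Rpl10a (top 5.17%) held TCAAGGTCA at chr17:28325193-28325201. The high-ranked peaks at Rpl3l and Rpl32l had no ERRE in the central 300 bp.

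The promoters themselves carried other motifs. Promoters of 69 of the 89 genes were matched in the RefSeq table, from 250 bases before to 50 bases after the TSS, and both strands were searched, apart from the pyrimidine run. TCAAGGTCA was in 0 of the 69, beside 0.466% of 27025 genes, and AAGGTCA, which also occurs inside it, in 5 (7.25%), beside 5.38%. These were Rpl3l, Rpl10l, Rpl24, Rpl35a and Rps3. The ETS core CCGGAAG was in 26 (37.7%), beside 9.93%. AAGATGGC, the core bound by YY1, was in 6 (8.7%), beside 3.19%, and GGGCGG, the SP1 box, in 41 (59.4%), beside 38.2%. A run of at least 5 pyrimidines over the start base was found in 23 (33.3%), beside 11.8%. The 27025 genes of the background were not limited to protein-coding genes, whereas the 69 were, so these shares compare unlike sets. A match is a description of the letters and not of a bound site.

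Other genes of protein synthesis were examined to place the family. Of 78 mitochondrial ribosomal protein genes, 32 (41.0%) were bound in WT muscle, 41 (52.6%) in ERRα3SA muscle, 30 (38.5%) in WT liver and 43 (55.1%) in ERRα3SA liver, and 13, 10, 9 and 7 had a peak in the top 10%. The latter were 16.7%, 12.8%, 11.5% and 8.97% of the genes, beside 2.25%, 6.74%, 2.25% and 3.37% of the 89 cytosolic genes and 5.59%, 9.48%, 4.95% and 6.57% of all protein-coding genes. In WT muscle the intervals of the 2 families did not overlap, from 0.618 to 7.83 for the cytosolic and from 10 to 26.5 for the mitochondrial genes. The cytosolic value rests on 2 genes, and with peaks named for a snoRNA counted for the host it was 4 genes (4.49%, 1.76 to 11.0), whose interval overlaps. Peaks named for a snoRNA were reassigned for the cytosolic genes only. In the other lists the intervals overlapped, and the difference itself was not tested.

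**Figure D5:**
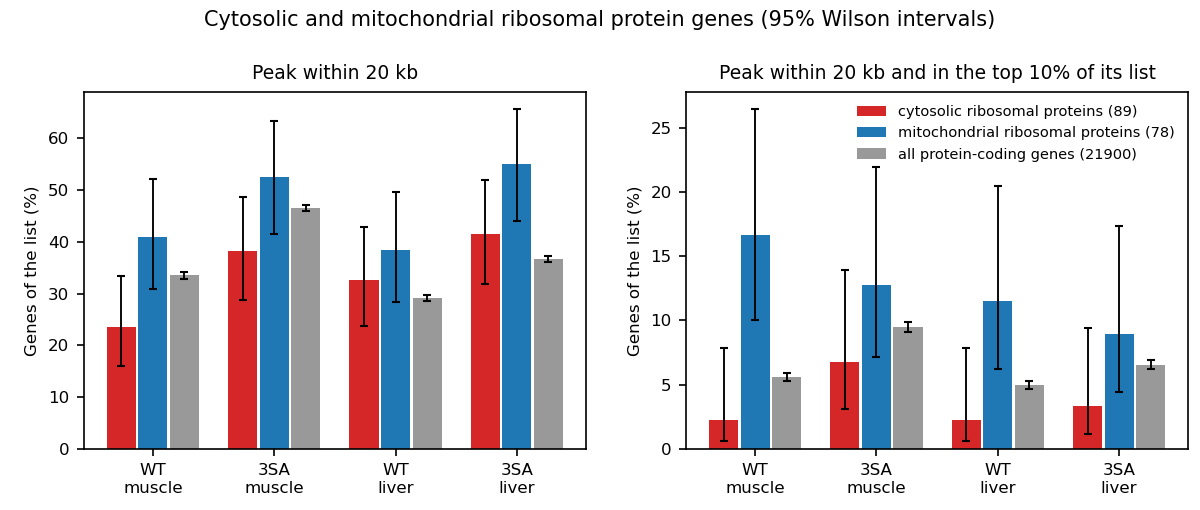
Share of cytosolic ribosomal protein genes, mitochondrial ribosomal protein genes and all protein-coding genes with a peak within 20 kb (left) and with one in the top 10% of its list (right), in percent with 95% Wilson intervals. The cytosolic bars are below the mitochondrial ones in all lists, with intervals apart only for the top 10% in WT muscle, where they overlap once peaks named for a snoRNA are counted for the cytosolic genes.

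Of 30 genes of RNA polymerase I and ribosome assembly, 12, 14, 6 and 12 were bound in WT muscle, ERRα3SA muscle, WT liver and ERRα3SA liver (40.0%, 46.7%, 20% and 40.0%, beside the 33.6%, 46.6%, 29.1% and 36.6% of all protein-coding genes), with a peak in the top 10% at Polr1a and Rrs1 in ERRα3SA muscle and at none in the other lists. Of 27 initiation and elongation factors, 10, 15, 8 and 14 were bound (37.0%, 55.6%, 29.6% and 51.9%), and Eef2, the translocase of elongation, was in the top 10% of all 4 lists. Of 16 genes of mTORC1 signalling to the ribosome, 7, 10, 6 and 6 were bound (43.8%, 62.5%, 37.5% and 37.5%). Of 12 transcription factors known at ribosomal protein promoters, 5, 6, 8 and 8 were bound (41.7%, 50%, 66.7% and 66.7%), with Zbtb7a in the top 10% of each list. Among ribosomal proteins that the name rule misses, Fau was bound in both liver lists (top 22.8% and 17.6%) and Rack1 in both ERRα3SA lists (top 38.7% in muscle and 24.9% in liver).

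Just inside the limit of 20 kb lay peaks at Rps29 (19059 bp downstream, ERRα3SA muscle), Rplp0 (18854 bp upstream, ERRα3SA muscle) and Rps24 (18642 bp downstream, WT liver). Just outside lay peaks of Rpl31 in ERRα3SA muscle (20061 bp upstream, top 5.83%) and in ERRα3SA liver (20174 bp upstream, top 30.1%) and of Rpl11 in ERRα3SA liver (20382 bp upstream, top 51.7%). Rpl31 had other peaks inside the limit, the best at the top 15.5% in ERRα3SA muscle.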

How the data were processed

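The values come from 4 lists of ERRα peaks, 1 for each genotype in muscle and in liver. Per the labels and the study's methods, the authors used Trimmomatic 0.36 for trimming, BWA 0.7.12 for mapping to mm10 and Picard 2.0.1 for removing duplicates, called peaks against input with MACS2 2.1.1.20160309 and annotated them with HOMER 4.9.1, from which the gene names and distances to the TSS come. The deposited score is a whole number used only for ranks within a list. The deposited CpG and GC contents are fractions. The labels give 3 pooled ChIPs per sample and the methods 4. The 4 input libraries were not used.

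Groups came from the labels. The family, the gene lists, the rule for named genes and the alternatives were chosen with earlier results of these data known. Named were the 5 best-ranked members of each list, those in all 4 lists, the 2 best bound in only 1 genotype of a tissue, those with an ERRE, those nearest the 20 kb limit, and the paralogs; other members were named after their values were seen. Intervals are 1-based on GRCm38.p6, whose GC content equalled the listed one within 0.001 for all 180 member peaks. The study's methods describe windows around peak summits, whereas the deposited member intervals were 235 to 2029 bp wide, so distances, sharing and central windows refer to interval centres, which may differ from the summits. A peak counted as shared if another list had a centre no more than 300 bp away. Alternatives were minimum scores of 50 and 100, other distances, overlap rules and motifs, trimming to the shorter list, and the core genes alone. Overlap and motif searches were tested on simulated data. Python 3.11.15 with pandas 2.3.3, scipy 1.17.1 and pysam 0.24.0 was used. Some genes are not reported here by name and were left out of the plots of single genes, but they are included in the counts.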

Additional observations from a re-analysis of the deposited data

Results flagged for a closer look

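Members with a promoter-TSS peak changed by -1 between WT and ERRα3SA in muscle (from 6 to 5) and by 1 in liver (from 6 to 7), and were flagged because the tissues moved in opposite directions. The median top percentage of the best member peaks likewise moved by 10.3 in muscle (from 24.6 to 34.9, towards lower ranks) and by -2.8 in liver (from 41.4 to 38.6). With tied peaks given their worst rank the muscle medians were 37.2 in WT and 37 in ERRα3SA, so that this move was lost and its sign turned. Over all genes the medians were 39.1 and 23.7 in muscle and 37.6 and 34.0 in liver, and the ERRα3SA lists are longer. With 1 list per group neither difference between tissues was tested.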

How the results depend on the processing

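Of 112 values under other settings, 57 stayed within 1.5 times the value at the main setting and 55 did not. All counts below are in the order WT muscle, ERRα3SA muscle, WT liver and ERRα3SA liver unless said. With a score of at least 50, members within 20 kb were 4, 8, 14 and 20, and with at least 100 they were 1, 3, 3 and 6. Cut to equal length, ERRα3SA muscle held 21. Within 1000 bp they were 12, 16, 11 and 15, and with any peak near the RefSeq TSS 53, 66, 58 and 62. Limits of 5000 or 50000 bp, the core genes alone and snoRNA peaks counted for their host (added after seeing the data) moved none by more than 1.5 times, but the last raised the family's genes with a top 10% peak in WT muscle from 2 to 4. Members with a promoter-TSS peak became 12, 16, 11 and 15 within 1000 bp, 2, 2 and 3 in the first 3 lists with a score of at least 50, and 1, 2, 1 and 1 with at least 100. The median top percentage in WT muscle became 16 within 1000 bp and 37.2 with ties given their worst rank, beside 37 in ERRα3SA muscle. For sharing, a member was counted here if its peak in either list had a partner in the other list, while the Results asked for this in both lists. At the main setting this gave 4 members shared between genotypes in muscle, 18 in liver, and 4 shared between tissues in each genotype. Members shared between genotypes in liver fell to 7 with centres within 100 bp. Members shared between tissues in WT became 2 with 100 bp, 7 with 1000 bp and 7 with 1 shared base, and in ERRα3SA 11 with 1000 bp and 7 with 1 shared base. Member peaks with TNAAGGTCA were 4 in ERRα3SA muscle, and with AAGGTCA, added after seeing the data, 2, 6, 12 and 24. With a score of at least 50, muscle held 1 member in both genotypes, 7 in ERRα3SA alone and 3 in WT alone, and liver 10 in both and 4 in WT alone. With at least 100, muscle held 1, 2 and 0, and liver 2, 4 and 1. At equal length muscle held 4 in both and 17 in ERRα3SA alone. No paired analysis was possible because each group has 1 library and the labels carry no replicate numbers. Without read numbers, depth sets no limit that could be computed here.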
